A study of Rattus norvegicus with 12 samples.

Results

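The 8 genes described here encode the pumps and exchangers that move calcium out of the cell or out of its mitochondria. They were found by symbol in a table of 34700 genes, and each symbol matched 1 row. The family was chosen by gene symbol with the expression values of these rats already known, Atp2b2 being among 12 genes called when BAIBA was compared with HFE. The levels and fold changes of the members are therefore a description, and their p-values show only where a gene stood in the fit of all genes.

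Each heartbeat lets calcium into the cardiomyocyte, and the same amount must leave before the next beat. The sodium-calcium exchanger NCX1 (Slc8a1) is known as the main route of calcium out of these cells, driven by the sodium gradient. The plasma membrane calcium ATPases, PMCA1 to PMCA4 (Atp2b1 to Atp2b4), use ATP and move less calcium per beat. Most calcium instead returns to the sarcoplasmic reticulum through SERCA2a (Atp2a2). Slc8b1 encodes NCLX, which is known mainly as the exchanger of the mitochondrial inner membrane, so the name "plasma membrane" does not hold for that member.

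RNA was sequenced from the hearts of 12 male Sprague-Dawley rats, 3 in each of 4 groups, all operated on at 8 weeks of age and studied 12 weeks later. The Sham rats had the coronary thread placed without ligation, and the other 3 groups had heart failure after an infarct, made by tying off the left anterior descending artery of the heart. The HF rats (labelled HF+Sed) stayed sedentary, the HFE rats (HF+Exe) ran on a treadmill for 60 min on 5 days a week over 8 weeks, and the BAIBA rats (HF+Med) received β-aminoisobutyric acid, a small molecule made by exercising muscle, at 75 mg/kg/day by gavage over 8 weeks. Tissue came from the front wall of the left ventricle, and the methods name the area around the infarct for the BAIBA group, while another passage of the study names it for the HF group too. The sources also differ on dosing, since the supplement describes BAIBA for Sham and HF rats; the sample labels, which give BAIBA to 1 ligated group, were followed. Where the sampled site differed, site and treatment cannot be told apart. The methods describe an exercise study and a BAIBA study, each with Sham and HF groups. In the BAIBA study those groups received water by gavage, which is not described for the exercise study. The labels do not say which study the Sham and HF rats came from. In BAIBA against HFE, gavage and study therefore cannot be told apart from treatment. No group combined Sham surgery with exercise or BAIBA in these libraries.

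Between 14812541 and 19732588 reads were counted on genes per rat, and the 10 most counted genes took 31.8% to 37.6% of them. The 5 cardiomyocyte markers (Myh6, Tnnt2, Tnni3, Actn2 and Myl2) summed to between 24022 and 33187 CPM, so cardiomyocyte transcripts were present in every library. The sum of the 4 atrial markers (Myl7, Myl4, Nppa and Bmp10) varied between rats of 1 group, from 12.2 to 214 CPM in BAIBA and from 69.9 to 536 CPM in HF. Nppa was the largest part of each sum, at 212 CPM in BAIBA rat 1 and 454 and 509 CPM in HF rats 2 and 3. Myl7 was at 0.669 and 2.33 CPM in BAIBA rat 1 and HF rat 2, but at 19.7 CPM in HF rat 3. It was at 27.3 and 40.6 CPM in Sham rats 1 and 3 and at 32.4 CPM in HFE rat 1. Myl4 was at 20.1, 19.6 and 12.8 CPM in those rats. Over the 12 rats Myl7 spanned 0.302 to 40.6 CPM. CPM here are library-scaled counts with TMM factors, which sets the libraries to a common composition, and serve to compare 1 gene between rats. FPKM are counts scaled by gene length and library size, as the authors deposited them, and serve to compare genes with each other.

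By FPKM, 5 of the 8 members were present at a level that allowed a test and 3 were at or near 0. Slc8a1 was the highest at 25.9 ± 5.0 FPKM (SD over 12 rats), above 94.0% of all genes in the table. Atp2b1 followed at 10.7 ± 1.0 FPKM, then Atp2b4 at 4.17 ± 0.66, Slc8b1 at 3.93 ± 0.86 and Atp2b2 at 2.52 ± 0.89. The ranges of Slc8a1 (18.6 to 33.6 FPKM) and Atp2b1 (8.99 to 12.4 FPKM) lay apart from each other and from those of the rest, whereas Atp2b4 (2.96 to 5.49), Slc8b1 (2.90 to 5.88) and Atp2b2 (1.26 to 3.76) overlapped. The gene lengths behind these values ranged from 2665 bases for Slc8b1 and 3020 for Slc8a1 to 8531 for Atp2b4 and 9124 for Atp2b2, and FPKM levels carry any error in those lengths. Among the 5, Atp2b2 had the widest span, its highest rat being 2.98-fold above its lowest in FPKM, and Atp2b1 the narrowest, at 1.38-fold.

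The remaining members are known mainly from nerve and skeletal muscle. Atp2b3 (PMCA3) had 0 counts in each of the 12 rats, which allows at most 0.152 to 0.203 CPM per rat if 3 counts are taken as the floor, for counting error alone. Slc8a2 (NCX2) had 93 counts over all rats, from 2 to 21 in each. Slc8a3 (NCX3) had 50 counts in all, with 11, 5 and 3 in Sham, 3, 2 and 0 in HF, 15, 4 and 3 in HFE, and 2, 1 and 1 in BAIBA. By CPM the Slc8a3 ranges did not overlap in HF against Sham, HFE against HF, BAIBA against HFE and BAIBA against Sham, though in the first 2 of these the nearest rats of both groups had 3 counts each. These 3 genes were below the filter on low counts in every reported edgeR fit, pairwise or of the 4 groups, though not in each alternative setting. In the 4-group test DESeq2 gave adjusted p-values of 0.998 for Slc8a2 and 0.416 for Slc8a3. Slc8a1 accordingly made up 98.5% to 99.7% of the summed FPKM of Slc8a1, Slc8a2 and Slc8a3 in each rat.

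**Figure D1:**
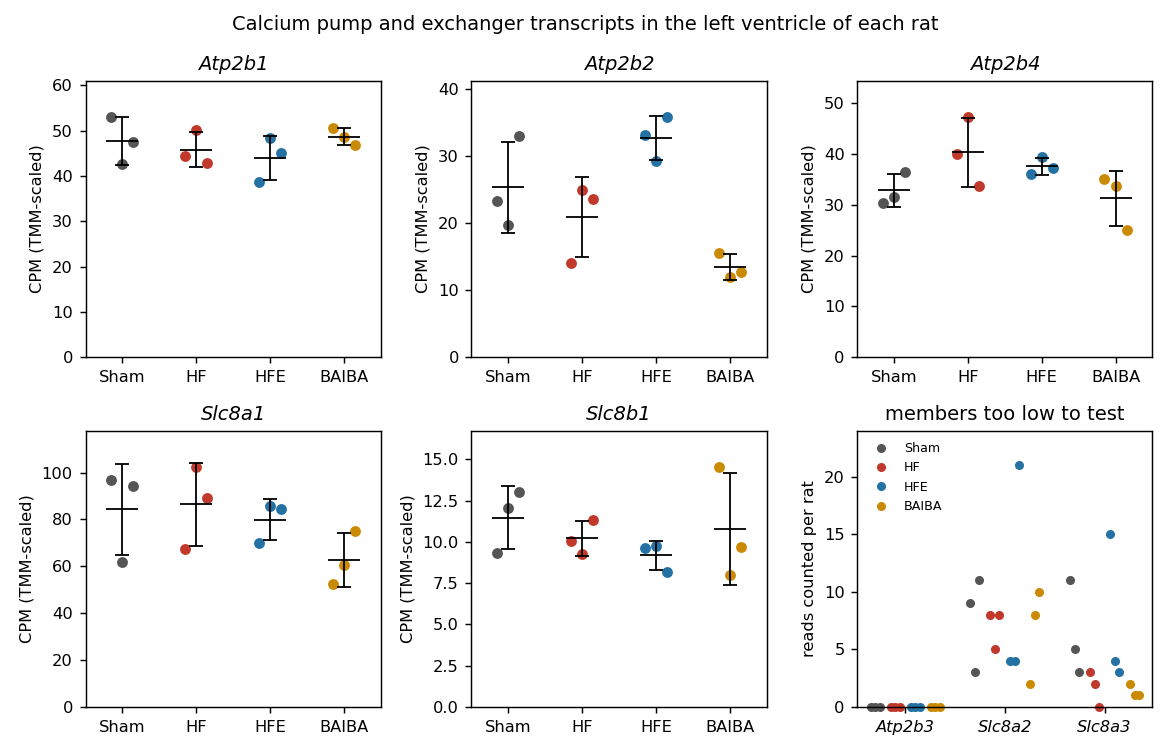
Level of each member in each rat, by group. In the first 5 panels points are rats and the y axis is CPM scaled by TMM, from 0, with the mean (long bar) and SD (n = 3); the last panel gives the reads counted for the 3 members too low to test, coloured by group. Atp2b2 lies at 29.2 CPM or more in the 3 HFE rats and at 15.6 CPM or less in the 3 BAIBA rats, while the groups overlap for Atp2b1 and Slc8b1.

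Atp2b2 (ENSRNOG00000030269) encodes PMCA2, a fast form of the pump best known from hair cells of the inner ear, neurons and the lactating mammary gland. Its level was 33.2, 29.2 and 35.8 CPM in the HFE rats 1 to 3 and 15.6, 11.9 and 12.8 CPM in the BAIBA rats. Sham rats had 23.3, 19.8 and 33.0 CPM, and HF rats had 14.0, 25.0 and 23.6 CPM. The HFE rats were thus all above the HF rats and the BAIBA rats all below the Sham and HFE rats, while BAIBA and HF overlapped through the first HF rat. These values rest on 186 to 566 reads per rat.

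In the order of group means, HFE came first with 32.7 ± 3.3 CPM, then Sham with 25.3 ± 6.8, HF with 20.9 ± 6.0 and BAIBA with 13.4 ± 1.9 (SD, n = 3). Each group overlapped its neighbour in that order, and the gaps between neighbours were 1.37, 0.70 and 1.68 times their pooled SD. Between the ends of the order, BAIBA against HFE, the log2 fold change was -1.28 (SE 0.14), so that the level fell to 0.412 of that in HFE, with an adjusted p of 0.0291 in edgeR's quasi-likelihood test. By p-value Atp2b2 was number 9 of 14844 genes, of which 12 (0.0808%) were called, a call being an adjusted p under 0.05 together with a change beyond 1 on the log2 scale in either direction.

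The other differences of Atp2b2 were not called. Against HF, the log2 fold change was 0.65 (SE 0.22) in HFE, with an unadjusted p of 0.0196 and an adjusted p of 0.627, and -0.63 (SE 0.23) in BAIBA, with an unadjusted p of 0.0266 and an adjusted p of 0.851. Both of these share the HF rats, and BAIBA against HFE is the test of the difference between them. Against Sham, Atp2b2 gave -0.28 (SE 0.27) in HF, 0.37 (SE 0.19) in HFE and -0.91 (SE 0.20) in BAIBA. The last had an unadjusted p of 0.00214 and an adjusted p of 0.367, at number 87 of 14920 genes. In the test across all 4 groups at once, Atp2b2 had an adjusted p of 0.266 by edgeR and 0.00107 by DESeq2.

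The call between BAIBA and HFE depended on how the data were processed, although the sign did not. Over 15 other settings the log2 fold change stayed between -1.41 and -0.85, and 6 of them gave an adjusted p under 0.05. Leaving out HFE rat 1, 2 or 3 raised the adjusted p to 0.118, 0.0914 and 0.0685, and leaving out BAIBA rat 2 or 3 raised it to 0.0660 and 0.153, whereas without BAIBA rat 1 it was 0.0146. With the replicate block, which pairs rats of the same number, the log2 fold change was -1.28 (SE 0.12), the adjusted p was 0.0240 and the genes called rose from 12 to 32. DESeq2 gave 2.05e-09, fits of all 12 rats 0.0824, and scaling by library size alone 0.0576.

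**Figure D2:**
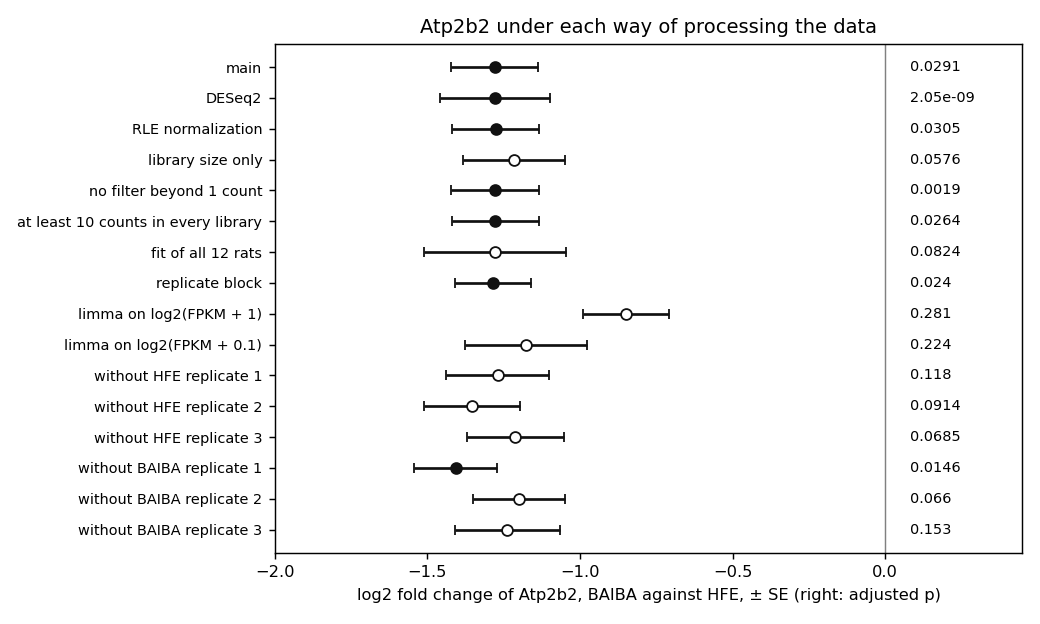
Log2 fold change of Atp2b2 in BAIBA against HFE under each setting, with its SE; filled points have an adjusted p under 0.05, and the adjusted p stands at the right. All 16 estimates lie below 0, between -1.41 and -0.85, and 7 of them, the reported one included, are filled.

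Other cell types were followed through marker genes, since in bulk tissue fewer cells of a type and less RNA per cell cannot be told apart. The 3 neuronal markers (Snap25, Syp and Tubb3) summed to 0.761 to 1.198 CPM in HFE and 0.257 to 2.06 CPM in BAIBA, and Snap25 had at most 3 counts in any of the 12 rats. Cardiomyocyte markers summed to 24022 to 28712 CPM in HFE and 25056 to 33187 CPM in BAIBA. Myh6, the largest part, was at 9127 to 13299 CPM in HFE and 12124 to 18337 CPM in BAIBA. Myl2 went the other way, at 2577 to 2808 CPM in HFE and 1834 to 2253 CPM in BAIBA. Tnnt2, Tnni3 and Actn2 overlapped between these groups, so the sum follows Myh6 more than the list. The sums of the 3 erythroid markers (Hba-a1, Hbb and Alas2) did not overlap, with 575 to 660 CPM in HFE and 738 to 986 CPM in BAIBA. Hbb alone did overlap, at 257 to 330 CPM in HFE and 306 to 485.5 CPM in BAIBA. Of all genes tested in BAIBA against HFE, 15.5% did not overlap. For 5 fibroblast and scar markers (Col1a1, Col3a1, Postn, Dcn and Fn1) the sums were 964 to 1293 CPM in HFE and 1228 to 1904 CPM in BAIBA, and for 4 macrophage markers (Cd68, Csf1r, Adgre1 and Cd14) 32.3 to 47.9 and 39.4 to 90.9 CPM. The top of both BAIBA ranges was BAIBA rat 1, and BAIBA rat 3 was at 1377 and 51.4 CPM. Endothelial markers (Cdh5, Kdr and Tek) summed to 416.5 to 563 CPM in HFE and 295 to 516 CPM in BAIBA. Smooth muscle and pericyte markers (Acta2, Myh11, Tagln, Rgs5 and Pdgfrb) summed to 344 to 513 CPM in HFE and 377 to 504 CPM in BAIBA. The atrial markers, mostly Nppa, summed to 28.7 to 193 CPM in HFE and 12.2 to 214 CPM in BAIBA. The part of these cell types in the Atp2b2 values was not tested.

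In the GRCr8 assembly 3 annotated genes overlap Atp2b2, and none of them is a row of the table by its symbol. The source does not say whether reads were counted by strand, so reads of an overlapping transcript cannot be told from those of Atp2b2. Likewise, 2 annotated genes overlap Atp2b4 and 2 overlap Slc8a3.

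Atp2b1 (ENSRNOG00000004026) encodes PMCA1, the form of the pump found in nearly every cell, and it varied least. Its level was 53.0, 42.6 and 47.5 CPM in Sham, 44.4, 50.2 and 43.0 in HF, 38.7, 48.3 and 45.1 in HFE, and 50.5, 48.6 and 46.9 in BAIBA. All 4 groups overlapped, and the group means lay between 44.0 and 48.7 CPM. The log2 fold change farthest from 0 was 0.15 (SE 0.11), in BAIBA against HFE.

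To show the start regions of these paralogs beside their levels, the 250 bases before the RefSeq start of Atp2b1 (GRCr8, chr7:35622211-35622460, plus strand) and Atp2b2 (GRCr8, chr4:148763654-148763903, minus strand) are given 5′ to 3′, with GC boxes (GGGCGG on either strand) in capitals.
Atp2b1: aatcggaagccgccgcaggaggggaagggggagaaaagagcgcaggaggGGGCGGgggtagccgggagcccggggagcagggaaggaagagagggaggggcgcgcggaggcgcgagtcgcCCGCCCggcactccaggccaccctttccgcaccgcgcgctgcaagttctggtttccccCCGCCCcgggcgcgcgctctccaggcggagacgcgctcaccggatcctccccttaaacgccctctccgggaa
Atp2b2: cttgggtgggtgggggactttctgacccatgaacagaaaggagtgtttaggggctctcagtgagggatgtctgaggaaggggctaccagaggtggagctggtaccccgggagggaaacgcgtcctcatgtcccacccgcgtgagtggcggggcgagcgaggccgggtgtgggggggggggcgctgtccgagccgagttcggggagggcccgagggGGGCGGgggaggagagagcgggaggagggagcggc

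Both stretches are rich in G and C, 72.8% in Atp2b1 and 69.2% in Atp2b2 against a median of 51.2% over 33469 rat genes. The GC box occurs 3 times before Atp2b1 and 1 time before Atp2b2, and 30.5% of all such windows hold it. Neither holds a TATA box (TATAAA), which 12.9% of the windows have, nor an E-box (CANNTG), which 65.5% have. By contrast, the window of Atp2b4 is 46.4% G and C with no GC box. Each window is that of 1 annotated start, and which start the heart uses was not tested here.

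Atp2b4 (ENSRNOG00000003031) encodes PMCA4, which in heart muscle is known to bind the neuronal nitric oxide synthase. It was at 30.4, 31.6 and 36.6 CPM in Sham, 40.0, 47.3 and 33.7 in HF, 36.1, 39.4 and 37.2 in HFE, and 35.1, 33.8 and 25.1 in BAIBA. The 3 BAIBA rats were below the 3 HFE rats, with 35.1 CPM in the highest BAIBA rat and 36.1 CPM in the lowest HFE rat. The log2 fold change was -0.26 (SE 0.14) for BAIBA against HFE, -0.36 (SE 0.17) for BAIBA against HF and 0.29 (SE 0.14) for HF against Sham, none with an adjusted p under 0.628 in edgeR's test.

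Summed over the pumps, the FPKM of the Atp2b genes overlapped between all groups, with 17.8 ± 1.7 in Sham, 17.5 ± 2.0 in HF, 17.6 ± 0.6 in HFE and 16.6 ± 1.9 in BAIBA (SD, n = 3). On the CPM scale the sums of the 3 BAIBA rats (84.8 to 101.2) were below those of the 3 HFE rats (108.0 to 118.1), while HF and Sham overlapped both. The CPM sums are not divided by gene length. They include the Atp2b2 values above, with means of 32.7 CPM in HFE and 13.4 CPM in BAIBA, and are not a separate result. Atp2b2 made up 15.7% ± 3.1 of the summed FPKM in Sham, 13.0% ± 3.3 in HF, 19.9% ± 2.6 in HFE and 9.04% ± 0.96 in BAIBA. The share of Atp2b1 was 62.3% ± 4.3 in Sham, 60.04% ± 1.9 in HF, 55.7% ± 2.8 in HFE and 68.5% ± 2.4 in BAIBA. That of Atp2b4 lay between 22.0% and 26.9% as a group mean. Between BAIBA and HFE, the shares of Atp2b1 (66.5% to 71.1% and 53.0% to 58.6%) and of Atp2b2 (7.98% to 9.84% and 17.0% to 21.7%) did not overlap, and the shares repeat the Atp2b2 values above on another scale. In CPM, which does not divide by length, Atp2b2 took 28.7% of the sum in HFE and 14.4% in BAIBA.

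**Figure D3:**
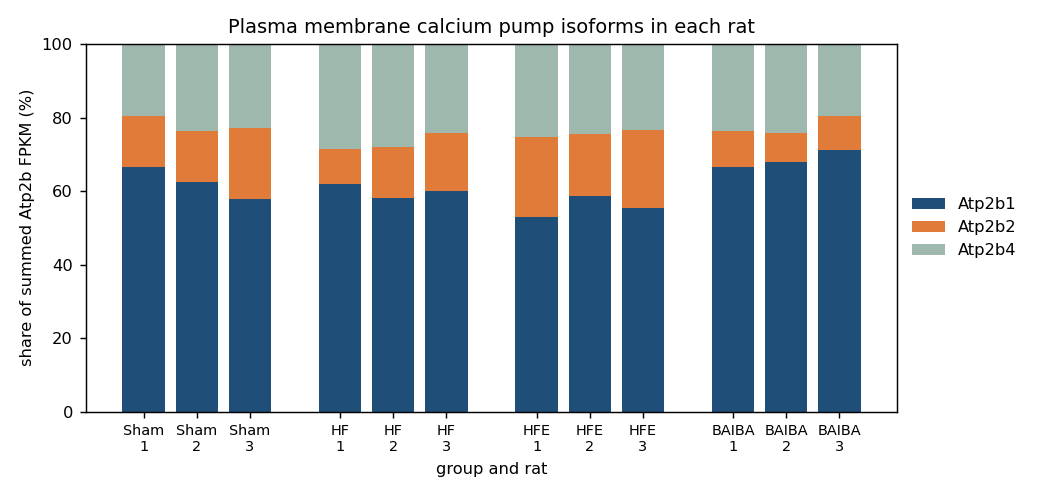
Share of each plasma membrane calcium pump in the summed FPKM of the Atp2b genes, as stacked bars for each of the 12 rats; Atp2b3 has no reads. The Atp2b2 segment spans 17.0% to 21.7% in the HFE rats and 7.98% to 9.84% in the BAIBA rats, while Atp2b1 is the largest segment in every rat, from 53.0% to 71.1%.

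Slc8a1 (ENSRNOG00000008479), the main exchanger, was at 96.9, 61.9 and 94.2 CPM in Sham, 67.5, 102.5 and 89.2 in HF, 69.8, 85.6 and 84.6 in HFE, and 52.3, 60.7 and 75.3 in BAIBA. The BAIBA mean of 62.7 ± 11.6 CPM was the lowest of the 4, but its range overlapped each of the others. The log2 fold change was -0.46 (SE 0.19) against HF and -0.35 (SE 0.15) against HFE, with unadjusted p-values of 0.0397 and 0.0459 and adjusted p-values of 0.851 and 0.509 in edgeR's test. Ligation alone gave 0.03 (SE 0.22) in HF against Sham, and running gave -0.11 (SE 0.16) in HFE against HF. Within Sham the rats ranged from 61.9 to 96.9 CPM, which is wider than any difference between the 4 group means.

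Set against the pumps, Slc8a1 had 1.58 ± 0.24 times the summed FPKM of the Atp2b genes in Sham, 1.63 ± 0.23 in HF, 1.46 ± 0.07 in HFE and 1.29 ± 0.33 in BAIBA, with all groups overlapping. Atp2a2, the pump of the sarcoplasmic reticulum, had 63.0 ± 5.9 times the FPKM of Slc8a1 in BAIBA, 44.7 ± 8.0 in HF, 45.3 ± 2.6 in HFE and 53.3 ± 14.6 in Sham. In the 3 BAIBA rats this ratio was 57.9 to 69.4, above the 35.7 to 50.9 of HF and the 43.3 to 48.2 of HFE, but within the 43.8 to 70.0 of Sham. Atp2a2 itself gave log2 fold changes of 0.05 (SE 0.13) for BAIBA against HF and 0.12 (SE 0.10) against HFE.

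Slc8b1 (ENSRNOG00000001383), the mitochondrial exchanger, was at 9.35, 12.1 and 13.0 CPM in Sham, 10.03, 9.26 and 11.3 in HF, 9.65, 9.76 and 8.17 in HFE, and 14.6, 8.02 and 9.71 in BAIBA. The BAIBA rats held both the highest and the lowest value of all 12, and no pair of groups was apart. Its largest log2 fold change was -0.31 (SE 0.16) in HFE against Sham, and the 12 rats had 125 to 261 reads each.

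**Figure D4:**
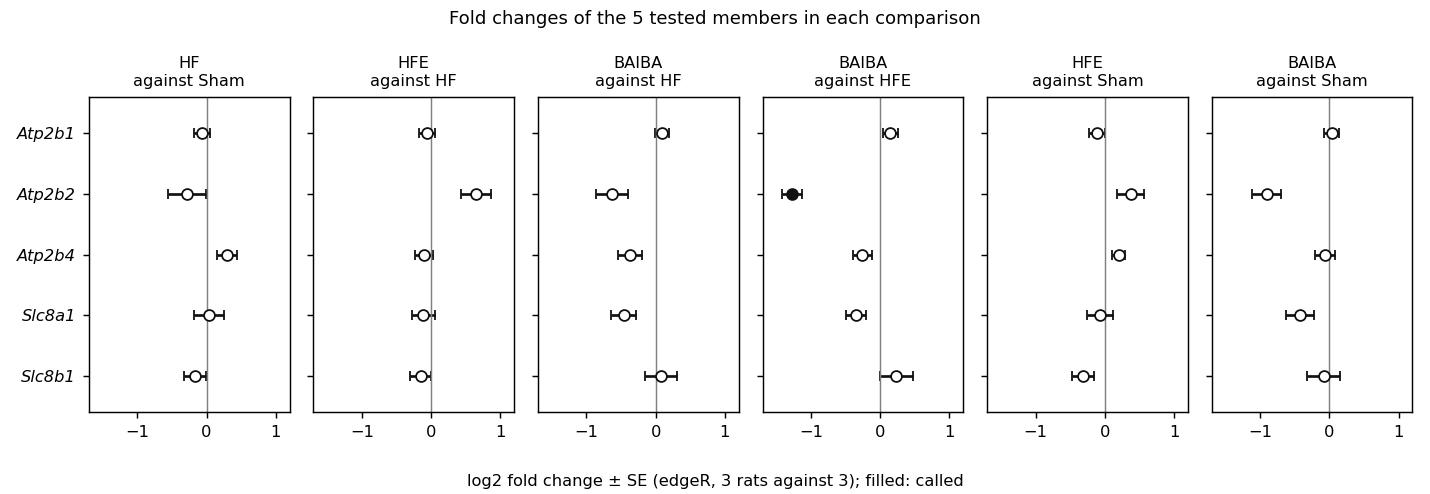
Log2 fold change with SE (x axis) of the 5 tested members in each of the 6 comparisons, 3 rats against 3; a filled point is a call. The 1 filled point is Atp2b2 in BAIBA against HFE at -1.28, and the values of Atp2b1 lie between -0.11 and 0.15.

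Across the 5 tested members, 1 was called in BAIBA against HFE and 0 in each of the other 5 comparisons by edgeR. The share of all genes called was 0% in HF against Sham, HFE against HF, BAIBA against HF and HFE against Sham, and 0.0402% in BAIBA against Sham. Members with an unadjusted p under 0.05 numbered 0 in HF against Sham, 1 in HFE against HF, 2 in BAIBA against HF, 2 in BAIBA against HFE, 0 in HFE against Sham and 1 in BAIBA against Sham. Over all genes 6.004%, 7.62%, 5.55%, 9.57%, 11.2% and 7.41% had such a p, in the same order. DESeq2 called 1 member in BAIBA against HFE and 0 in the other pairs. Its shares of all genes called in the pairs are not reported here. In the 4-group test edgeR called 0 members and 0 of 15617 genes (0%), with an unadjusted p under 0.05 for Atp2b2 alone among the members. DESeq2 called 1 member in that test, Atp2b2, and its share of all genes called there is not reported here. In BAIBA against HFE and in BAIBA against Sham, DESeq2 called more of all genes than edgeR did. Those totals are given in the last section.

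Members whose groups did not overlap numbered 0, 1, 0, 2, 0 and 1 of 5 in that order of comparisons, beside 11.8%, 14.4%, 11.4%, 15.5%, 17.7% and 12.7% of all genes tested. The median log2 fold change of the 5 was -0.06 for HF against Sham, -0.10 for HFE against HF, -0.36 for BAIBA against HF, -0.26 for BAIBA against HFE, -0.07 for HFE against Sham and -0.08 for BAIBA against Sham, while the median over all genes was within 0.01 of 0 each time. In BAIBA against HF and in BAIBA against HFE, 3 of the 5 (Atp2b2, Atp2b4 and Slc8a1) were on the lower side and 2 (Atp2b1 and Slc8b1) on the higher, with Slc8b1 on the lower side in 1 of 15 other settings of each comparison. These comparisons share the BAIBA rats and are not independent.

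The genes that work beside the pumps and exchangers were followed in 6 lists with 52 genes, of which 51 were in the table and 45 to 47 were tested. edgeR called 0 of them in each of the 6 comparisons, while 3 to 9 had an unadjusted p under 0.05, beside 5.55% to 11.2% of all genes. DESeq2 called 0 in 4 comparisons, 1 in BAIBA against HFE (Cacna1g) and 2 in BAIBA against Sham (Nos1 and Sln), which are named for that reason after their values were seen. In BAIBA against HFE and in BAIBA against Sham it also called more of all genes than edgeR did. Sln averaged 3.33 ± 2.48 CPM in Sham and 0.524 ± 0.330 CPM in BAIBA (SD), and the Sham rats ranged from 2.44 to 19.4 FPKM. Nos1, the nitric oxide synthase that PMCA4 binds, averaged 1.48 CPM in Sham, 0.581 in HF, 0.816 in HFE and 0.162 in BAIBA. Of these means, only that of BAIBA was close to the level of 3 counts, 0.152 to 0.203 CPM. The lowest adjusted p among the listed genes in BAIBA against Sham was 0.1655 in edgeR's test. Cacna1g, a T-type calcium channel, averaged 28.8 ± 18.1 CPM in HFE and 11.6 ± 2.0 in BAIBA, with a log2 fold change of -1.31 (SE 0.44) and an adjusted p of 0.426 by edgeR and 0.0208 by DESeq2.

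By list, in BAIBA against HFE, 3 of 14 calcium entry genes, 1 of 8 sodium gradient genes, 1 of 7 sarcoplasmic reticulum genes, 1 of 8 mitochondrial calcium genes, 0 of 5 pump partners and 0 of 3 other exchangers and pumps had an unadjusted p under 0.05. Over all genes, 9.57% had such a p in BAIBA against HFE, and no list was tested as a set. The most abundant gene of each list by FPKM gave the following log2 fold changes there. Cacnb2, a subunit of the L-type calcium channel, was at -0.09 (SE 0.17), Fxyd1, a regulator of the sodium pump, at -0.01 (SE 0.09), and Pln, the brake on SERCA2a, at -0.01 (SE 0.10). Smdt1, a subunit of the mitochondrial calcium uniporter, was at -0.22 (SE 0.11), Bsg, a partner protein of the pumps, at -0.18 (SE 0.09), and Atp2c1, a calcium pump of the Golgi apparatus, at 0.18 (SE 0.10). For Smdt1 and Bsg the 3 BAIBA rats were below the 3 HFE rats, and the lowest adjusted p of these 6 genes was 0.587.

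The genes whose levels moved most like a member's were found among 12957 genes by Pearson's r of log2(CPM + 0.1) over the 12 rats, which share 4 groups and 12 libraries. For Slc8a1 they were Itpripl2 (r = 0.961), Clasp1 (0.941) and Pcnx1 (0.907), and for Atp2b1 they were Adam4 (0.855), Nudcd1 (0.831) and Ankfy1 (0.804). With the group means removed, r was 0.952, 0.923 and 0.933 for the first 3 and 0.847, 0.795 and 0.820 for the next 3. For Atp2b2, examined after its values were seen, they were Chst7 (0.899), Hspb1 (0.883) and Mgst3 (0.881), and with the group means removed r was 0.546, 0.855 and 0.601. Among the members themselves, r over the 12 rats was 0.602 for Atp2b2 with Slc8a1, 0.405 for Atp2b2 with Atp2b4 and -0.236 for Atp2b2 with Atp2b1.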

How the data were processed

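Transcriptomes of the left ventricle of 12 rats (4 groups of 3) were read from the table of all genes. The sample labels gave the groups and replicate numbers, and doses, times and sites from the methods. According to the methods and the labels' processing notes, the authors trimmed reads, aligned them with HISAT2, assembled genes with StringTie and counted reads per gene with featureCounts of Subread. Tool versions are not given in the sources used here, and the notes name a mouse build (mm9) although the identifiers are rat Ensembl identifiers. The deposited counts are raw whole numbers, and the deposited FPKM values were made by the authors from these counts and gene lengths. Other deposited tables repeat these values and were not used.

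Counts were fitted in R 4.3.3 with edgeR 4.0.16 (TMM, filterByExpr, robust quasi-likelihood test, Benjamini-Hochberg adjustment over all genes tested), each pair of groups alone, and all 4 groups in 1 F test. Calls needed an adjusted p below 0.05 and a change of more than 1 on the log2 scale (for 4 groups, the p alone). The SE was taken from the log2 fold change and its F statistic. All p-values are two-sided and, as nothing else is said of the samples, measure the spread between these 12 libraries, which differed by more than sampling noise within each group (chi-square per degree of freedom 11.8 to 33.7). Intervals and floors from counts cover counting error only. Ranges are compared on CPM.

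As alternatives the pairs were refitted with DESeq2 1.42.0, with RLE factors or library sizes, keeping every gene with 1 count or only genes with 10 counts in each library, on all 12 rats together, with a replicate block, without each rat, without the fold limit, and with limma 3.58.1 on log2(FPKM + 1) or log2(FPKM + 0.1) where the mean FPKM reached 0.1. Shares were also computed on CPM. Same-numbered rats are different animals. In BAIBA against HFE the deviations of all 3 same-numbered pairs correlated (r from 0.138 to 0.261), so the block is given there; in the other comparisons at least 1 pair did not exceed 0.1.

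The members and gene lists were chosen with earlier results of these data known. Named are all members, the most abundant gene of each list, Atp2a2, markers, and the 3 genes most like each of the 2 most abundant members; Atp2b2 was added to these, and Nos1, Cacna1g and Sln were named, after their values were seen. Atp2a1 was not analysed here, and a few listed genes are not reported here. Promoter windows of 6 of the 8 members were matched by symbol in RefSeq (GRCr8), which was also used for overlapping genes; the build of the counts is not GRCr8 by any source, and no coordinates were joined.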

Additional observations from a re-analysis of the deposited data

Results flagged for a closer look

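Atp2b2 stood out because its level differed between the interventions. Relative to HF, the 3 HFE rats were all higher (log2 fold change 0.65, SE 0.22) and the mean of the BAIBA rats was lower (-0.63, SE 0.23). Neither was called, with adjusted p-values of 0.627 and 0.851 by edgeR's quasi-likelihood test. In HFE against HF, 14.4% of all genes tested did not overlap. The difference between the interventions, tested directly as BAIBA against HFE, was -1.28 (SE 0.14, adjusted p 0.0291 by the same test). Of 15 other settings, 6 gave an adjusted p under 0.05 for it. The lowest HFE rat had 29.2 CPM and the highest BAIBA rat 15.6 CPM. The family was chosen with this value known, and no test outside these 12 rats was available here.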

How the results depend on the processing

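Of the 450 log2 fold changes of members recomputed under the alternatives, 17 had the opposite sign, 0 of them of Atp2b2; these were of Atp2b1 (4), Atp2b4 (3), Slc8a1 (6) and Slc8b1 (4), none called and none above 0.23 in size as reported. Atp2b2 kept its sign throughout, lost its call in 9 settings of BAIBA against HFE, and moved to -0.59 in BAIBA against Sham with limma on log2(FPKM + 1). The members called in BAIBA against HFE went from 1 to 0 with library size only (log2 fold change -1.22), in the fit of all 12 rats (-1.28, SE 0.23), and with limma on log2(FPKM + 1) (-0.85) and on log2(FPKM + 0.1) (-1.18, adjusted p 0.224). The cause of these differences was not tested. With each rat left out they ranged from 0 to 1, and the log2 fold change from -1.41 to -1.20. DESeq2 called 1 member in the 4-group test, 1 partner gene in BAIBA against HFE and 2 in BAIBA against Sham, where edgeR called 0. All genes called in BAIBA against HFE numbered 12 by edgeR, 171 by DESeq2, 30 with no filter, 7 with library size only, 3 in the fit of all 12 rats, 2 and 3 with limma, 16 with no limit on the fold change, 10 with at least 10 counts in every library, and 3 to 20 with a rat left out. In BAIBA against Sham they numbered 6 by edgeR and 78 by DESeq2. With the replicate block, 32 genes were called in BAIBA against HFE, and the block changed no member's call in any comparison. On CPM in place of FPKM the shares of the pumps moved by more than 1 SD, Atp2b1 to 52.2% in BAIBA and 38.5% in HFE. Slc8a3 and Slc8a2 had 50 and 93 reads in all over the 12 rats, which limits what can be said of them.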
